A study of Rattus norvegicus with 8 samples.

Results

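The ER to Golgi secretory machinery is described here in nucleus pulposus cells of the rat, which come from the gel-like core of the intervertebral disc, after knockdown of the RNA-binding protein HuR (gene Elavl1). Members were taken by gene symbol alone: the translocation and signal peptidase genes (Sec61 to Sec63, Srp, Ssr, Spcs, Sec11), the COPII and COPI coats, the ARF and SAR1 GTPases, cargo receptors (Tmed, Lman, Kdelr, Ergic, Surf4), tethers (Trappc, Cog, Golga, Gorasp) and SNARE and YIP genes. The rule took 118 of the 13536 gene rows. Of these, 116 reached 10 normalized counts in at least 4 of the 8 libraries and were tested among 11847 genes. Mia2 and Golga7b did not reach that level. Sar1a and Arf3 were not analysed here.

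The study asked how loss of HuR changes the transcriptome of disc cells kept at low oxygen. Primary cells grown out of Wistar rat disc explants received a lentiviral shRNA, either a non-target MISSION PLKO.1 construct (ShCTR, n = 4) or one against HuR (ShHuR, n = 4), and both groups spent the last 24 h at 1% O2, so that all 8 libraries describe hypoxic, transduced cells. The labels name 1 HuR shRNA and do not tie the 4 samples of a group to separate rats or cultures, so the spread that p-values measure may be technical. In fits that take the replicate number as a block, it is the spread of the differences between same-numbered samples. Deviations that same-numbered samples share are taken out. Age and sex of the rats were not stated.

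Proteins bound for secretion are led by the signal recognition particle to the SEC61 channel, enter the endoplasmic reticulum (ER) and lose their signal peptide. Cargo receptors then load them into COPII vesicles, which bud at ER exit sites, while COPI vesicles bring escaped residents and receptors back. Tethers and SNAREs dock and fuse these vesicles at the Golgi. Disc cells secrete collagens and proteoglycans in bulk, and procollagen, too long for an ordinary vesicle, needs COPII carriers enlarged with help from the MIA3 (TANGO1) receptor. HuR binds AU-rich stretches of many mRNAs and is best known for stabilising them.

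Total reads ran from 9096738 to 12179515 in the ShCTR libraries and from 6797360 to 8038192 in the ShHuR libraries, so that depth moved with the group; its part in the results was not tested. Elavl1 had normalized counts of 554.8, 699.3, 582.5 and 644.3 in ShCTR 1 to 4 and of 63.8, 6.06, 8.36 and 49.6 in ShHuR 1 to 4. Relative to the control of the same replicate number (a pair, numbered 1 to 4), 11.5%, 0.867%, 1.43% and 7.7% of Elavl1 was left. Libraries that share a replicate number deviated together, and replicate number 1 stood apart in both groups: 26.3% of all tested genes were higher and 26.8% lower in both of its libraries than in all the other 6. Of the nucleus pulposus markers, Col2a1 was at or below 21 normalized counts and Sox9 between 8.08 and 44.8, while the summed markers ran from 755 to 1546 in ShCTR and from 508 to 1270 in ShHuR. The 9 annulus and fibroblast markers summed to 59669 to 208671 in ShCTR and 46560 to 171253 in ShHuR. The markers do not by themselves separate these cells from fibroblast-like disc cells, and the cells are called by their label.

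Loss of HuR went with lower mRNA of a minority of the secretory genes, with cargo receptors (8 genes) and translocation genes (5) making up most of them and tethers only 2. With the replicate number as a block (limma, adjusted p under 0.05), 23 of 116 members (19.8%) fell and 0 rose, where 8.05% of all tested genes fell and 7.16% rose. Their log2 fold changes lay between -1.52 (Tmed1) and -0.37 (Sar1b), and their adjusted p between 0.00588 and 0.0479. Over all 116 members the median log2 fold change was -0.14, against 0.01 over all tested genes, and 83 were below 0. A further 33 members had a fold change above 0, and 4 of these had an unadjusted p under 0.05. For 64 members the 95% interval of the fold change lay within 0.5 of 0 on the log2 scale, beside 3751 of all 11847 tested genes.

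**Figure D1:**
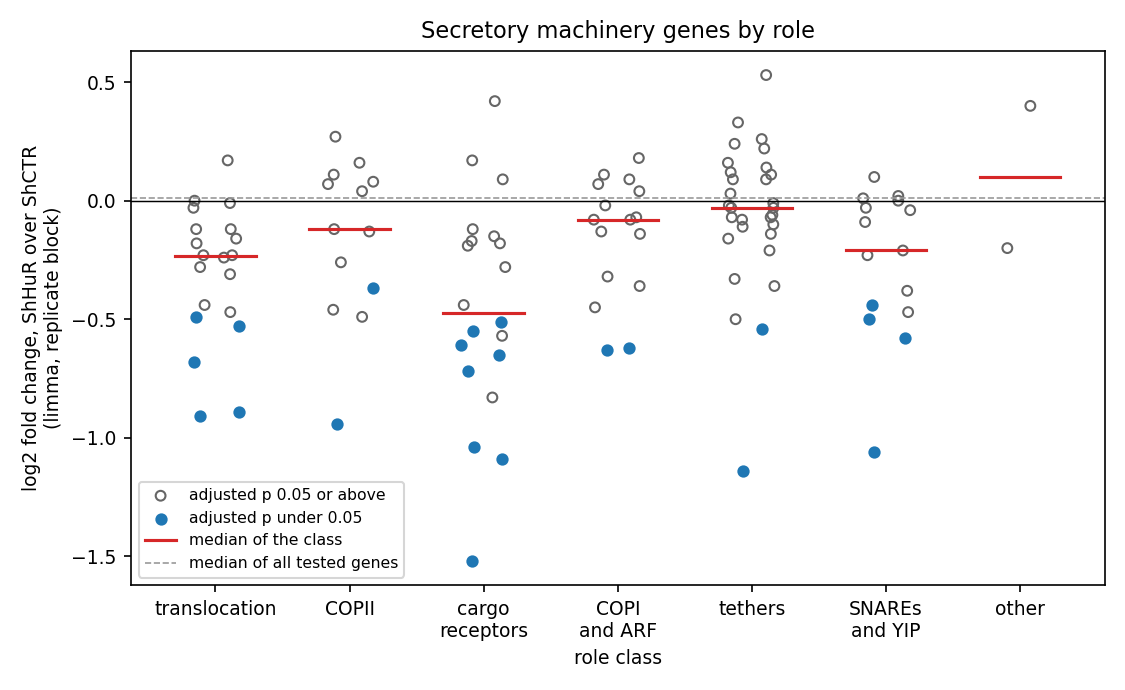
Log2 fold change (ShHuR over ShCTR) of each tested member, 1 point a gene, grouped by role; filled points passed the test with the replicate block, red bars are class medians. Cargo receptors have the lowest class median (-0.47) and tethers lie around 0 (-0.03).

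These calls depend on taking the replicate number as a block. Without it, limma called 0 members and 0 of 11847 genes, the lowest adjusted p of a member was 0.157 (Tmed1), and 17 members had an unadjusted p under 0.05, against 978 (8.26%) of all genes; edgeR on the recovered reads also called 0 and DESeq2 called 5, all lower (1.18% of all genes). Of the 23 calls, the numbers that held on leaving out pairs 1 to 4 in turn were 21, 3, 8 and 0. Over all tested genes, the same fits called 1497, 43, 318 and 0 lower, where 954 were lower with all pairs. Without pair 4, Elavl1 itself did not pass (adjusted p = 0.0549, limma with the block). Calls without pair 2 or pair 4 were thus few for any gene. Without pair 1, 26 members in all were called lower and 3 higher (Tmed5, Trappc2 and Trappc8), beside 12.6% and 11.3% of all genes. In all, 45 members were lower in ShHuR in each of the 4 pairs, against 19.4% of tested genes; they include the 23, which the blocked fit selects for a like difference within pairs. No fold change of a called member moved by more than 1.5 times when a pair was left out, which that selection largely ensures.

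As a share of all reads, the members took 1.32%, 1.49%, 1.43% and 1.43% in ShCTR 1 to 4 and 1.24%, 1.33%, 1.25% and 1.39% in ShHuR 1 to 4. The share was lower in ShHuR in every pair, and the groups overlapped. In bulk RNA, fewer cells of a type and less RNA per cell cannot be told apart. Some fibroblast markers moved in the same direction. Of 9 tested, 4 (Col1a1, Col3a1, Thy1, Pdgfrb) fell (44.4%, against 8.05% of all tested genes) and 0 rose. Log2 fold changes of 7 were below 0, while Dcn (0.59) and Lum (0.01) were above it. Of 10 tested nucleus pulposus markers, 3 (Acan, Sox6, Car12) fell (30.0%) and 7 were below 0. Cd24 (1.03), Sox5 (0.63) and Foxf1 (0.01) were above 0 and not called. Of 4 smooth muscle markers, 1 (Acta2) fell (25.0%) and all 4 were below 0. Smooth muscle markers summed to 9733 to 34629 in ShCTR and 6834 to 50790 in ShHuR, leukocyte markers to 334 to 993 and 563 to 1290, with 0 of 3 called. Of the endothelial markers 1 (Tek) was in the table, at 0.732 to 1.83 in ShCTR and 0 to 14.6 in ShHuR, below the level needed for a test. The part of cell makeup in the result was not tested.

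Cargo receptors, which pick proteins for transport, had the lowest median log2 fold change of the role classes with more than 2 genes (-0.47), and 8 of 20 fell (40.0%, against 8.05% of all tested genes) while 0 rose. Their pair medians were -0.12, -0.58, -0.65 and -0.35 in pairs 1 to 4, beside 0.04, 0.03, 0.00 and -0.02 over all tested genes. Within them, 5 of 9 genes of the p24 (TMED) family fell. These small membrane proteins cycle in COPII and COPI vesicles and carry GPI-anchored and other cargo.

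Tmed1 (ENSRNOG00000008037), a p24 protein of the gamma subfamily, had normalized counts of 398, 421, 362 and 450 in ShCTR 1 to 4. In ShHuR 1 to 4 it had 184, 143, 84.6 and 178. The groups did not overlap, and the mean went from 408 ± 36.9 to 148 ± 45.6 (SD, n = 4 each). The log2 fold change was -1.52 (SE 0.17, adjusted p = 0.00588, limma with the block). Pair 3 showed the largest difference (-2.09) and pair 1 the smallest (-1.11). An exact permutation test over the 8 samples, which ignores the pairs, gave p = 0.0286, two-sided, the smallest that 4 against 4 samples allow. Any gene whose groups do not overlap gets this value, so it adds nothing to the separation of the groups. Of all tested genes, 3.09% had ShHuR wholly below ShCTR. Tmed1 overlaps 3 other genes in the RefSeq annotation (Dnm2, C8h19orf38 and Pigx-ps1). Of the 23 called members, 8 more overlap at least 1 gene: Bet1l, Copz1, Ergic1, Golga1, Sar1b, Srp68, Trappc9 and Yipf3. The sources used here do not state whether counting used strand, so reads of such neighbours cannot be told apart.

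Tmed2 (ENSRNOG00000001053), the beta-type p24 protein that pairs with TMED10, stood at 7211, 6734, 6786 and 6394 in ShCTR 1 to 4. Its ShHuR values were 4229, 2958, 2097 and 3959, all below every control library. Means were 6781 ± 335 and 3311 ± 976 (SD, n = 4 each), a log2 fold change of -1.09 (SE 0.18, adjusted p = 0.0153). Tmed10 itself had a log2 fold change of -0.57 (SE 0.18) and did not pass (adjusted p = 0.0673). Its value was -0.72 without pair 1 (adjusted p = 0.0209) and -0.36 without pair 3 (adjusted p = 0.172).

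Tmed3 counts were 3138, 2919, 2630 and 2431 in ShCTR and 3074, 1531, 1073 and 1554 in ShHuR. Only the replicate 1 value of ShHuR was near the controls, with a pair difference of -0.03 beside -0.93, -1.29 and -0.65. Its log2 fold change was -0.72 (SE 0.19, adjusted p = 0.0434). Tmed4 (-0.55, SE 0.13, adjusted p = 0.0297) and Tmed9 (-0.51, SE 0.14, adjusted p = 0.0444) fell as well. The remaining p24 genes that were not called were Tmed7 (-0.12), Tmed8 (0.09) and Tmed5 (0.42, 95% interval 0.01 to 0.83, adjusted p = 0.137). Tmed5 was at 0.63 without pair 1 (adjusted p = 0.0132) and at 0.27 without pair 3 (adjusted p = 0.395).

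Lman1 (ENSRNOG00000024470) encodes ERGIC-53, the mannose lectin that carries glycoproteins such as clotting factors out of the ER. Its normalized counts were 3122, 2441, 2833 and 1825 in ShCTR and 2057, 1259, 830 and 1030 in ShHuR. The groups overlapped through ShCTR 4 and ShHuR 1, while the differences within pairs were -0.60, -0.95, -1.77 and -0.83 on the log2 scale. Means were 2556 ± 561 and 1294 ± 538 (SD, n = 4 each), with a log2 fold change of -1.04 (SE 0.18, adjusted p = 0.0171). Lman2, the VIP36 lectin of the early secretory pathway, fell too (-0.61, SE 0.13, adjusted p = 0.0254), as did Ergic1 (-0.65, SE 0.17, adjusted p = 0.0433), a protein of the ER-Golgi intermediate compartment. Lman1l, read at 3.03 to 142 normalized counts, had a wide interval (-1.62 to -0.05) and was not called.

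**Figure D2:**
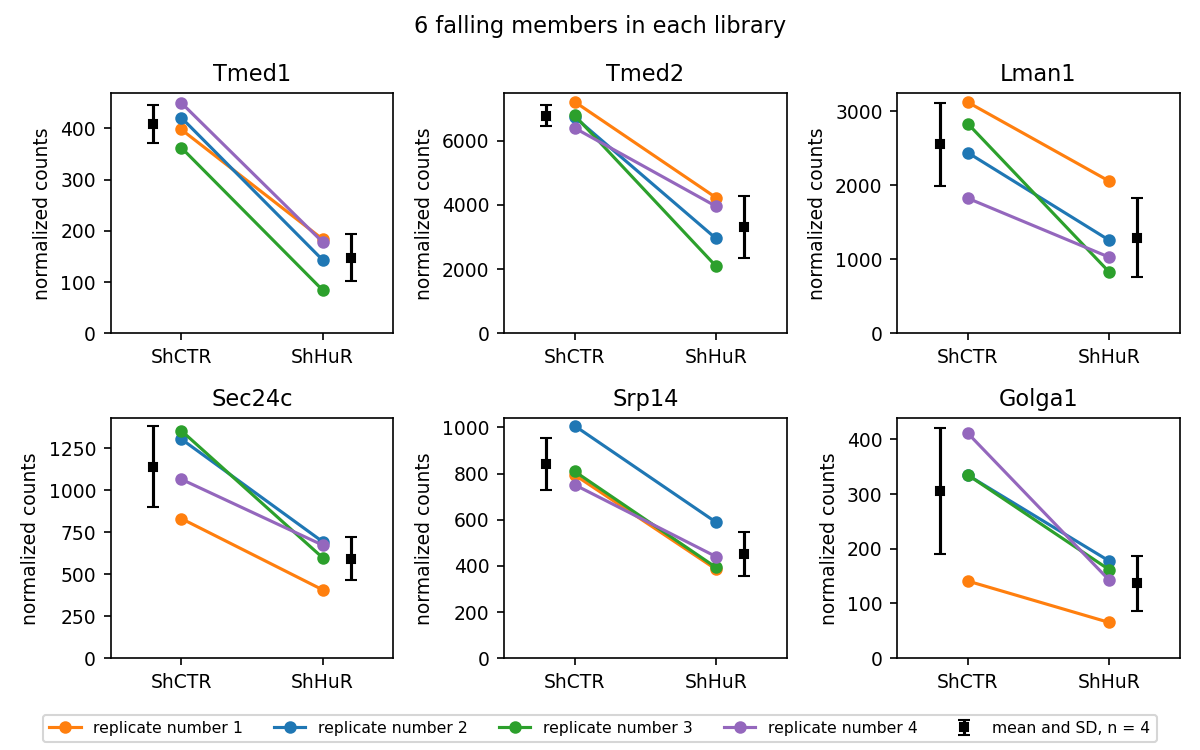
Normalized counts of 6 called members in each library; lines join libraries that share a replicate number and black squares are group means with SD (n = 4). Each of the 24 lines falls, and replicate number 1 starts lowest for Sec24c and Golga1 and highest for Tmed2 and Lman1.

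KDEL receptors, which return escaped ER residents such as chaperones from the Golgi, did not pass the test. Kdelr1 had 2815, 1773, 1951 and 1429 normalized counts in ShCTR and 2840, 1501, 1312 and 1527 in ShHuR (log2 fold change -0.18, 95% interval -0.48 to 0.13). Kdelr2 had 2336, 1621, 1701 and 1492 in ShCTR and 2199, 1351, 1221 and 1570 in ShHuR (-0.19, -0.46 to 0.08). Kdelr3 had 1241, 1293, 1223 and 786 in ShCTR and 1691, 1312, 1172 and 962 in ShHuR (0.17, -0.09 to 0.44). For Kdelr1 and Kdelr2 both libraries of replicate number 1 were above all others. Surf4, the receptor for several soluble secreted proteins, had 345, 476, 496 and 324 in ShCTR and 237, 380, 329 and 409 in ShHuR (-0.28, -0.66 to 0.10), and pair 4 alone was higher in ShHuR.

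At the entry to the ER, 5 of 20 translocation genes fell (25.0%, against 8.05% of all tested genes) and 0 rose, with a median of -0.24. Of the 8 members whose ShHuR values all lay below ShCTR, 4 were translocation genes (Srp14, Sec62, Ssr1 and Ssr3), beside Tmed1, Tmed2, Sec24c and Yipf4. That is 6.90% of members, against 3.09% of all tested genes, and 0 members lay wholly above, against 2.52%.

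Srp14 (ENSRNOG00000007512), part of the Alu domain of the signal recognition particle that slows translation during targeting, had 795, 1008, 810 and 752 normalized counts in ShCTR. It had 386, 590, 394 and 441 in ShHuR. The difference varied little among pairs (-1.04, -0.77, -1.04 and -0.77), and the log2 fold change was -0.91 (SE 0.10, adjusted p = 0.0066), from a mean of 841 ± 114 to 453 ± 94.6 (SD, n = 4 each). RefSeq lists a numbered copy or pseudogene named after Srp14, as it does for Sec24c, Tmed2 and Tmed4, and reads could be shared with it. Its partner Srp9 had a fold change of -0.16 and was not called.

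Srp68, which with SRP72 forms the protein core of the particle, had 765, 312, 344 and 247 in ShCTR and 483, 199, 134 and 133 in ShHuR. Both libraries of replicate number 1 were the highest, and the fold change within pairs was -0.66, -0.65, -1.36 and -0.89, giving -0.89 overall (SE 0.14, adjusted p = 0.0139). Srp72 did not pass (-0.18, 95% interval -0.48 to 0.12). Sec62, a channel partner that helps small proteins enter the ER and acts in ER recycling, had 1238, 1785, 1561 and 1318 in ShCTR and 840, 1071, 891 and 868 in ShHuR. Its groups were separate and its log2 fold change was -0.68 (SE 0.10, adjusted p = 0.0115).

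The SEC61 channel genes did not pass. Sec61a1, the pore subunit, had 3274, 4424, 4171 and 2967 in ShCTR and 2645, 3062, 2060 and 2897 in ShHuR (-0.47, SE 0.16, adjusted p = 0.0886), with almost no difference in pair 4 (-0.03). Sec61b had 499, 833, 904 and 591 in ShCTR and 488, 701, 503 and 548 in ShHuR (-0.31, SE 0.15, adjusted p = 0.175). Sec61g (-0.01) and Sec63 (-0.03) lay near 0 with intervals within 0.32 of it.

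The translocon-associated protein (TRAP) complex, which assists certain signal peptides, was uneven across its 4 subunits. Ssr4 counts were 1817, 1810, 1582 and 1393 in ShCTR and 1763, 1042, 935 and 962 in ShHuR, so that replicate number 1 showed no drop (-0.04) and the rest did (-0.53, SE 0.14, adjusted p = 0.0434). Ssr3 went the other way among pairs: 3701, 3704, 4302 and 3764 in ShCTR against 2354, 2465, 2731 and 3594 in ShHuR, with the smallest difference in pair 4 (-0.07; overall -0.49, SE 0.13, adjusted p = 0.0479). Ssr1 (-0.44, adjusted p = 0.0649) missed the threshold, and Ssr2 had a log2 fold change of 0.17 (95% interval -0.05 to 0.39). The 5 signal peptidase genes lay close together, between -0.28 and -0.12, and 0 were called.

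Among 13 tested COPII genes, 2 fell (15.4%, against 8.05% of all tested genes) and 0 rose, a difference of about 1 gene. Sec24c (ENSRNOG00000009042), 1 of 4 SEC24 paralogs that bind cargo on the coat, had 831, 1305, 1355 and 1066 normalized counts in ShCTR. It had 407, 694, 598 and 673 in ShHuR, below every control library. The means were 1139 ± 241 and 593 ± 131 (SD, n = 4 each), with a log2 fold change of -0.94 (SE 0.11, adjusted p = 0.00751) and pair values from -1.18 to -0.66.

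The other SEC24 paralogs had intervals that did not reach the size of this change. Sec24a had 388, 250, 369 and 223 in ShCTR and 363, 252, 258 and 244 in ShHuR (-0.12, 95% interval -0.42 to 0.19). Sec24b had 220, 231, 261 and 204 in ShCTR and 251, 240, 231 and 235 in ShHuR (0.07, -0.21 to 0.34). Sec24d, the closest relative of SEC24C, had 702, 867, 949 and 700 in ShCTR and 784, 917, 826 and 844 in ShHuR (0.08, -0.18 to 0.33). The interval of Sec24c ran from -1.20 to -0.68 and overlapped none of these; the difference between paralogs itself was not tested.

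Sar1b, the GTPase that starts COPII assembly, had 1128, 882, 830 and 747 in ShCTR and 913, 675, 567 and 631 in ShHuR, a log2 fold change of -0.37 (SE 0.10, adjusted p = 0.0439). The inner coat genes were close to the threshold or away from it: Sec23b had 490, 1068, 1023 and 672 in ShCTR and 360, 728, 566 and 675 in ShHuR (-0.46, SE 0.14, adjusted p = 0.0665). Sec23a had 918, 2060, 2104 and 1225 in ShCTR and 959, 1759, 1265 and 1121 in ShHuR (-0.26, 95% interval -0.58 to 0.07). In both SEC23 genes, replicate number 1 was lowest in either group.

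For the outer cage, Sec31a had 2237, 1214, 1692 and 1103 in ShCTR and 1691, 889, 828 and 1036 in ShHuR (-0.49, SE 0.15, adjusted p = 0.0656). Its partner Sec13, also a nuclear pore protein, had 558, 1030, 988 and 785 in ShCTR and 491, 1058, 789 and 762 in ShHuR (-0.13, 95% interval -0.37 to 0.11). Groups overlapped in both genes. Sec16a, the scaffold of ER exit sites, had 845, 1404, 1584 and 1043 in ShCTR and 781, 1676, 1593 and 1471 in ShHuR (0.16, -0.12 to 0.45).

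Mia3, the procollagen receptor, did not pass the test: its counts were 1776, 2008, 2213 and 1972 in ShCTR and 2033, 2315, 2336 and 1916 in ShHuR, a log2 fold change of 0.11 with a 95% interval of -0.12 to 0.34. Mia2, its relative at the same sites, was read at 0.934, 8.79, 33.8 and 6.27 in ShCTR and 0, 2.02, 37.6 and 4.05 in ShHuR, too low to test, with the highest value of each group in replicate number 3. A list of 26 procollagen export genes (COPII core, MIA receptors, the SNARE Stx18, the ubiquitin ligase parts Klhl12 and Cul3, Serpinh1 and others) had 24 tested, of which 2 fell (Sec24c and Sar1b; 8.33%, about the 8.05% of all tested genes) and 0 rose, with a median of 0.00. Of its 13 tested genes outside the symbol rule, 0 were called.

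**Figure D3:**
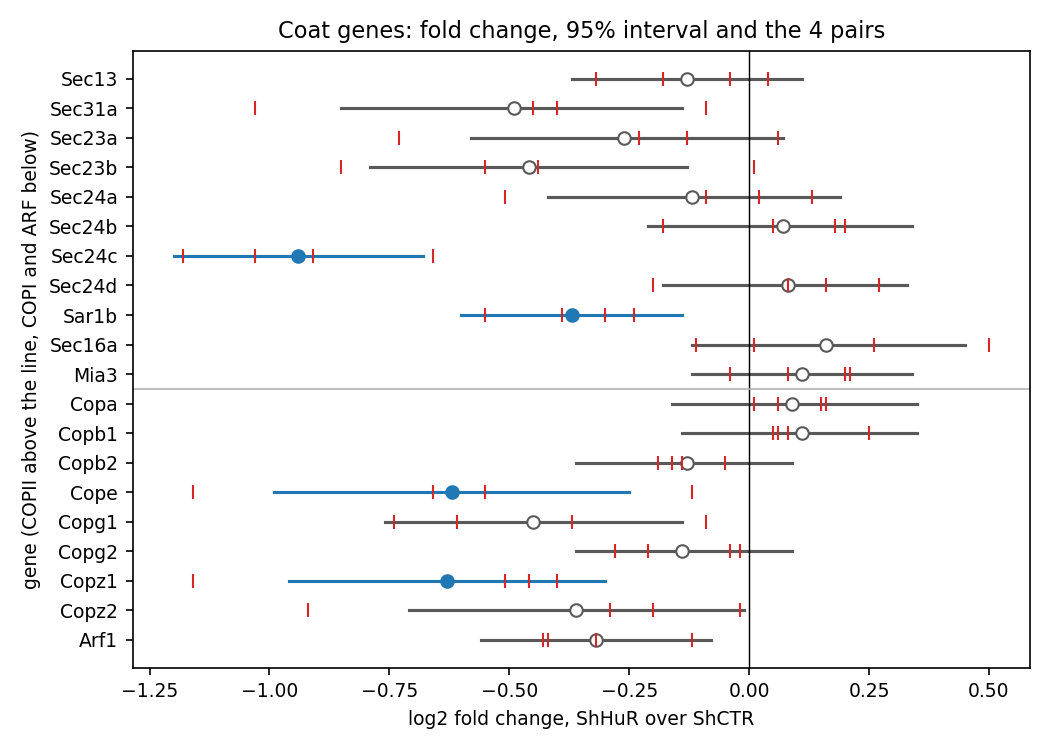
Log2 fold change (circles; filled where the test was passed) with its 95% interval (bars) and the 4 within-pair differences (red ticks) for COPII genes (upper block) and COPI and ARF genes (lower block). Sec24c, Sar1b, Cope and Copz1 are filled, while Sec24b, Sec24d, Mia3, Copa and Copb1 sit on the other side of 0 with intervals that include it.

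Of the COPI and ARF genes, 2 of 16 fell (12.5%), near the 8.05% of all tested genes, and 0 rose, with a median of -0.08. Copz1 (zeta) had 1377, 660, 782 and 843 in ShCTR and 1041, 465, 350 and 614 in ShHuR (-0.63, SE 0.14, adjusted p = 0.029). Cope (epsilon) had 1717, 1515, 1555 and 1270 in ShCTR and 1577, 959, 698 and 867 in ShHuR (-0.62, SE 0.16, adjusted p = 0.0406). In both genes pair 3 differed most (-1.16 each) and pair 1 least.

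Copa, the alpha subunit of the cage, had 5077, 3650, 3894 and 3390 in ShCTR and 5660, 3811, 3919 and 3760 in ShHuR (0.09, 95% interval -0.16 to 0.35). Copb1 (0.11) and Copb2 (-0.13) likewise had intervals within 0.36 of 0. Copg1 was just outside the threshold (-0.45, SE 0.13, adjusted p = 0.0576) and inside it without pair 1 (-0.57, adjusted p = 0.0174), but not without any other pair (-0.35 to -0.48, adjusted p 0.16 to 0.217). Copz2, the other zeta subunit, had 998, 775, 835 and 505 in ShCTR and 982, 634, 442 and 439 in ShHuR (-0.36, -0.71 to -0.01, adjusted p = 0.137).

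Arf1, the GTPase that recruits coatomer, had 2838, 1805, 1771 and 1915 in ShCTR and 2615, 1343, 1322 and 1534 in ShHuR (-0.32, SE 0.10, adjusted p = 0.0732). Replicate number 1 was highest in both groups, and each pair was lower in ShHuR. Without pair 1 the value was -0.39 and passed (adjusted p = 0.0381), and without each other pair it was -0.29 to -0.32 and did not (adjusted p 0.189 to 0.268). The other ARF genes and the 3 ARFGAP genes, whose products help ARF hydrolyse its GTP, lay between -0.08 and 0.18 and 0 were called.

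Tethers, which catch vesicles before fusion, passed the test in 2 of 30 genes (6.67%), both lower, near the 8.05% of all genes, with a median of -0.03. For 21 of them the 95% interval lay within 0.5 of 0, beside 3751 of all 11847 tested genes. The COG complex had 0 of 8 called (median 0.03) and TRAPP 1 of 14 (median -0.03).

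Golga1 (golgin-97, ENSRNOG00000014493), a coiled-coil tether of the trans-Golgi network, had the lowest fold change among them. Its counts were 141, 335, 335 and 411 in ShCTR and 65.3, 178, 162 and 143 in ShHuR. ShCTR 1 lay among the ShHuR values, because replicate number 1 was lowest in both groups, while the pair differences ran from -1.52 to -0.91 on the log2 scale. The log2 fold change was -1.14 (SE 0.14, adjusted p = 0.00751), and it passed without pairs 1, 2 and 3 in turn, though not without pair 4 (adjusted p = 0.0574). Without pair 4, 0 of all tested genes passed in either direction. Golga1 overlaps Arpc5l in the annotation.

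Trappc9, a TRAPPII subunit, had 587, 311, 258 and 238 in ShCTR and 511, 214, 135 and 168 in ShHuR (-0.54, SE 0.14, adjusted p = 0.0386). Golga2 (GM130), the cis-Golgi tether, had 1473, 983, 977 and 817 in ShCTR and 1658, 965, 843 and 691 in ShHuR (-0.08, 95% interval -0.33 to 0.17). The highest fold change of any member belonged to Trappc2 (sedlin, lost in a human skeletal dysplasia), with 27.1, 100, 74 and 99.5 in ShCTR and 19.8, 168, 152 and 174 in ShHuR. Pair 1 went down (-0.44) and the other pairs up (0.74, 1.03 and 0.80), so that the whole set gave 0.53 (SE 0.25, adjusted p = 0.169), the set without pair 1 gave 0.86 (adjusted p = 0.00784), and the sets without each other pair gave 0.37 to 0.47 (adjusted p 0.393 to 0.432). Golga7b stayed at or below 15.9 and was not tested.

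Of the SNARE and YIP genes, 4 of 15 fell (26.7%, against 8.05% of all tested genes) and 0 rose (7.16% of all), with a median of -0.21. Stx5, the Golgi syntaxin required for ER to Golgi fusion, had 423, 693, 716 and 664 in ShCTR and 299, 511, 408 and 444 in ShHuR (-0.58, SE 0.10, adjusted p = 0.0181). Bet1l (GS15), which pairs with it inside the Golgi, had 180, 401, 499 and 404 in ShCTR and 112, 306, 369 and 335 in ShHuR (-0.44, SE 0.11, adjusted p = 0.0388). In both genes replicate number 1 was lowest and the groups overlapped only through ShCTR 1.

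Yipf3, a Golgi membrane protein, had 540, 1213, 805 and 761 in ShCTR and 377, 750, 593 and 603 in ShHuR (-0.50, SE 0.10, adjusted p = 0.0235). Sec22c, a relative of the SNARE SEC22B, had 40.2, 19.8, 31 and 30.5 in ShCTR and 31.9, 9.09, 11.5 and 10.1 in ShHuR, and its fold change of -1.06 has a wide error (SE 0.28, adjusted p = 0.0441). It rests on as few as 9 reads in a library, where every other called member had at least 43. Sec22b itself (-0.21), Bet1 (-0.04), Gosr1 (0.01) and Gosr2 (-0.03) were not called. Yipf4 had separate groups and missed the threshold (-0.38, adjusted p = 0.0688). Sec14l1 and Sec14l2, lipid-binding proteins taken in by the letters of their names, had log2 fold changes of -0.20 and 0.40, and 0 of 2 were called.

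The size of the difference varied with the replicate number. The members' median log2 difference in pairs 1 to 4 was -0.04, -0.18, -0.36 and -0.10. Of the 23 called genes, 16 had their largest drop in pair 3 and 13 their smallest in pair 1. Pairs 2 and 3, which retained the least Elavl1, had the lowest medians, and pair 1, which retained the most, the one nearest 0. With 4 pairs, a relation between the depth of the knockdown and the members was not tested.

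**Figure D4:**
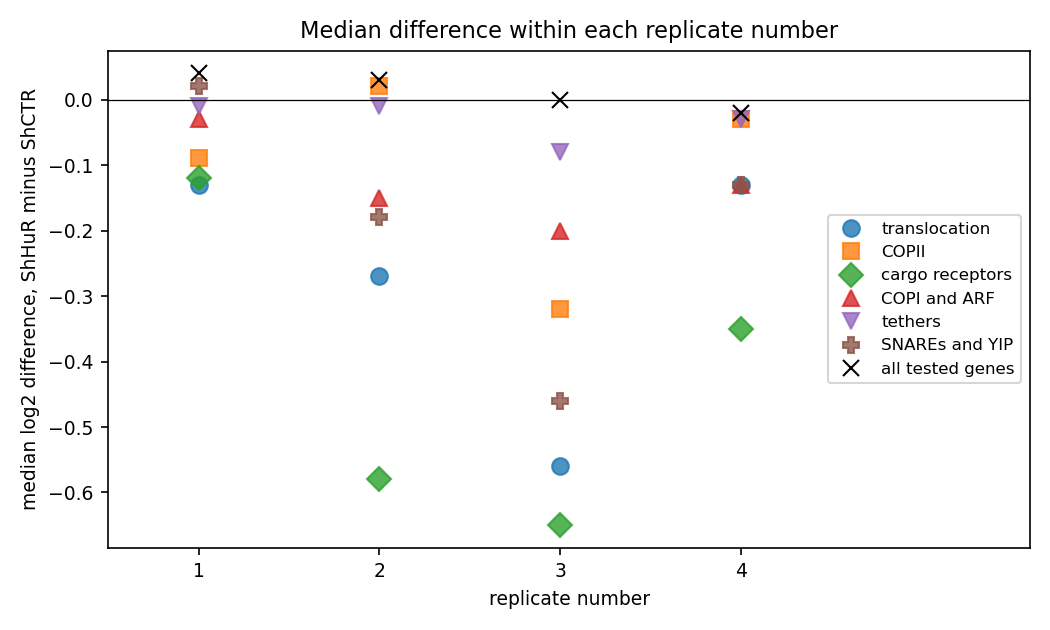
Median log2 difference (ShHuR minus ShCTR) of each role class within each replicate number, with all tested genes as crosses. Cargo receptors reach -0.58 and -0.65 in pairs 2 and 3, translocation and SNARE and YIP genes come closest to them in pair 3, and tethers stay between -0.08 and -0.01.

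Replicate number 1 shaped the levels in both groups. In its 2 libraries 40 of 116 members (34.5%) were above all the other 6 libraries and 31 (26.7%) below, beside 26.3% and 26.8% of all tested genes. The high set held Arf1, Copa, Kdelr1, Kdelr2, Tmed3 and Srp68, and the low set Sec23a, Sec23b, Sec16a, Tmed5, Trappc2 and Golga1. For replicate number 2 the counts were 5 above and 1 below (3.99% and 4.57% of all genes), for number 3 they were 1 and 4 (2.81% and 3.44%), and for number 4 they were 3 and 12 (6.79% and 6.33%). Of 14 tested regulators and stress genes of the pathway, 7 were above all other libraries in both of these, 3 below and 4 neither. Ddit3 (CHOP) had 19834 normalized counts in ShCTR 1 and 18837 in ShHuR 1, against 615 to 1142 elsewhere, and Hspa5 (BiP) had 38751 and 35774, against 8546 to 14708. In the other direction, Xbp1 had 312 and 340, against 934 to 1258, and Dnajb9, an ER co-chaperone, 814 and 827, against 1196 to 1897. These genes were picked out after their values were seen, and their part in the members' levels was not tested.

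**Figure D5:**
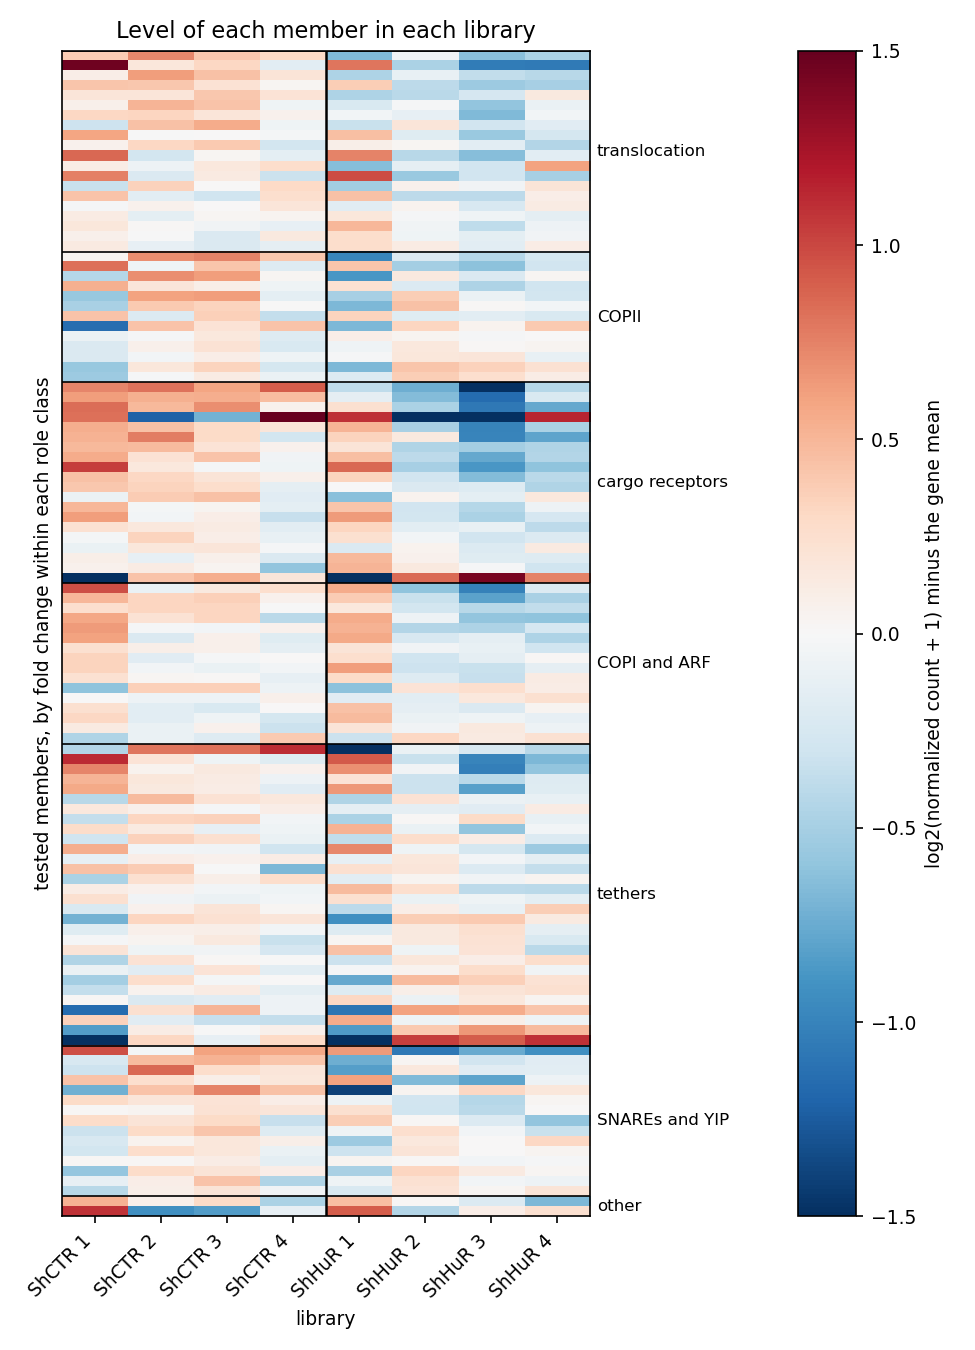
Each row is a tested member and each column a library; colour is log2(normalized count + 1) minus the gene's own mean over the 8 libraries, limited to 1.5 in either direction, with genes sorted by fold change inside each role. The first column of each group carries the strongest colours in many rows, in both directions, and the upper rows of the cargo receptors turn from red to blue between the groups.

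A list of 15 regulators and stress genes of the pathway had 14 tested, of which 1 (7.14%, against 8.05% of all tested genes) fell (Dnajb11, an ER co-chaperone: 2768, 2512, 2022 and 1868 in ShCTR and 2548, 1703, 1234 and 1377 in ShHuR, log2 fold change -0.46, SE 0.12, adjusted p = 0.0443) and 0 rose. Xbp1, the transcription factor that expands the ER, had a log2 fold change of 0.06 (adjusted p = 0.699). Hspa5 was at -0.35 (adjusted p = 0.187), Creb3l2 at -0.67 (adjusted p = 0.0719) and Creb3l1 at 0.50 (adjusted p = 0.197). Hsp90b1 was at -0.56 (adjusted p = 0.0801), Creb3 at -0.49 (adjusted p = 0.0644) and Atf6 at -0.29 (adjusted p = 0.102), all by limma with the block. The median of the 14 was -0.26, beside -0.14 for the members and 0.01 for all tested genes. Of the 14, 9 were below 0 and 5 above it. DESeq2 with the block called 3 of them lower and 0 higher. A link between these genes and the members was not tested.

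The promoters of the members were searched for the DNA elements through which such regulators are known to act, in the 300 bases from 250 before to 50 after each RefSeq start (GRCr8), on both strands. The letters TGACGTGG, the core of the element bound by XBP1 and ATF6, occurred in 10 of the 105 member promoters in the table (9.52%), against 0.975% of the promoters of tested genes and 0.637% of all. The holders were Arf1, Arf4, Copa, Copb1, Copb2, Golga1, Kdelr3, Sec23a, Srp19 and Stx5. Only 2 of them (Golga1 and Stx5) were among the 21 called members with a promoter, which is again 9.52%. The palindrome TGACGTCA of cAMP response elements, which shares its first 6 letters with TGACGTGG, was found in 1.90% of member promoters (Arfgap2 and Cope) and 3.22% of tested genes. The full ER stress element, CCAAT followed after 9 bases by CCACG (letters also held by the reverse of TGACGTGG), was in 0 of 105. A match of letters is a description of the sequence and no evidence of binding.

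The stretches below are 60 bases each, 5′ to 3′ on the gene's strand, upstream of the start, and show the match in capitals (CCACGTCA is TGACGTGG read on the opposite strand). They are shown for a called SNARE and a called golgin (Stx5, Golga1), and for uncalled coat, ARF and KDEL receptor genes, so that the element can be compared between genes that fell and genes that did not pass. Coordinates are GRCr8, with Arf1 at chr10:44513995-44514054 (minus strand), Arf4 at chr16:1903376-1903435 (plus), Copb2 at chr8:108040627-108040686 (plus), Golga1 at chr3:43222439-43222498 (minus), Kdelr3 at chr7:112959505-112959564 (plus), Sec23a at chr6:82440962-82441021 (minus) and Stx5 at chr1:215066472-215066531 (plus).
Stx5: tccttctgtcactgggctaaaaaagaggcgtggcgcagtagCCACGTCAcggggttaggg
Golga1: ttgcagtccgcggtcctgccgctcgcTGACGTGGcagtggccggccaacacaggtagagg
Arf1: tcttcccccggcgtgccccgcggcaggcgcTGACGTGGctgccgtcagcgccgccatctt
Arf4: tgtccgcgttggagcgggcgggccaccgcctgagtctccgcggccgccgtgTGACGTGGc
Copb2: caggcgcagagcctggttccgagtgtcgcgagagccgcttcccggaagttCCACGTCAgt
Kdelr3: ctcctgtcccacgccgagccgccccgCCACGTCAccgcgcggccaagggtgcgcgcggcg
Sec23a: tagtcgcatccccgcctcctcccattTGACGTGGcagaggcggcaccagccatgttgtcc

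The match shown began 19 bases before the start in Stx5, 30 in Arf1, 10 in Copb2 and 9 in Arf4. It lay farther upstream in Sec23a (91), Kdelr3 (101) and Golga1 (153), and in Srp19 (155), whose stretch is not shown. Stx5 held another match at bases 12 to 19 from the start onward. Stx5 and Golga1 fell in ShHuR with log2 fold changes of -0.58 and -1.14, while Arf4 (-0.07), Copb2 (-0.13), Kdelr3 (0.17) and Sec23a (-0.26) were not called. Arf1, Copa, Copb1 and Srp19, the further holders, were not called either.

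Genes of the same route that the symbols did not capture were read from a list of 59, with 56 tested. Of these 5 fell (8.93%, near the 8.05% of all tested genes) and 1 rose (1.79%, against 7.16%), with a median of -0.08. Rab1a, the GTPase that recruits tethers to COPII vesicles, had 2230, 3027, 2814 and 2804 in ShCTR and 1234, 1231, 1161 and 1491 in ShHuR. The groups were separate and the change was -1.08 (SE 0.12, adjusted p = 0.00588). Nbas, part of the tether at the ER that receives COPI vesicles, had 2977, 1940, 2100 and 1540 in ShCTR and 2410, 1311, 609 and 823 in ShHuR (-0.89, SE 0.22, adjusted p = 0.0368).

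Gcc1 and Gcc2, golgins with a GRIP domain at the trans-Golgi, moved in opposite directions. Gcc1 had 64.4, 234, 180 and 194 in ShCTR and 30.4, 124, 125 and 118 in ShHuR (-0.80, SE 0.15, adjusted p = 0.0183). Gcc2 had 765, 1170, 1071 and 887 in ShCTR and 1200, 1967, 1687 and 1375 in ShHuR, above every control library (0.67, SE 0.09, adjusted p = 0.0108). Gbf1, the exchange factor that loads ARF1 with GTP (-0.57, adjusted p = 0.0202), and Rab2a (-0.48, adjusted p = 0.0306) were the other called genes of the list.

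The authors' deposited table gives an adjusted p below 0.05 to 26 members, all lower in ShHuR, where it does so for 8.84% of tested genes in that direction and 8.26% upward. Of the 23 genes called here, 22 were among them, the exception being Sec22c. Both results come from the same 8 libraries, so the overlap is no independent check. The authors' values put 1047 of the tested genes lower, where DESeq2 here put 1071 lower with the block and 140 without it. For Tmed1 the authors' deposited table lists a log2 fold change of -1.39, and for Golga1 -1.08. These are not on the same footing as the fold changes given here: Elavl1 is at -1.82 there and at -4.84 here.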

How the data were processed

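RNA of 8 rat samples (4 ShCTR, 4 ShHuR) was sequenced after ribosomal RNA depletion with a stranded kit, per the labels' protocols. The deposited values are normalized counts, a signal in which the reads of a gene are divided by 1 factor per library, and per the file headers they come with the authors' log2 fold changes and adjusted p-values. An aligner, a counting program or a genome build is not given in the sources used here. Whole reads were recovered for 100% of values (tolerance 0.01 read).

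Genes with 10 or more normalized counts in at least 4 of 8 libraries (11847) were tested in R 4.3.3 with limma 3.58.1 and its mean-variance trend on log2(value + 1), two-sided, with Benjamini-Hochberg adjustment over all of them, at 0.05. Fold changes on this scale understate changes of low genes. The planned main design had no block and made 0 calls. Same-numbered libraries deviated together over all tested genes (correlations 0.871, 0.785, 0.627 and 0.773 for numbers 1 to 4, where the highest with a library of another number was -0.26, 0.43, 0.62 and -0.08, so number 3 is hardly separated). The condition set for using the number as a block was a correlation over 0.1 for every number. It was met, so single-gene values come from the blocked fit. ShCTR 2 and 3 also passed 0.1 with a library of another number. Meeting the condition therefore does not show that same-numbered libraries are true pairs. What the number stands for is not given in the labels. The headers of the deposited values give same-numbered libraries of both groups a shared tag, without saying what it stands for. That fit called 1802 genes. On the recovered reads, edgeR 4.0.16 with the block called 1845 and DESeq2 1.42.0 called 2053. The scripts were tested on simulated data.

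Named genes were 24 members fixed by name, up to 4 rising and 4 falling called members per role, and up to 3 in each direction per further list. The members and lists were chosen with earlier results of these data known. The sheet of all genes pairs rows with Ensembl identifiers out of step with their symbols (3 of 2116 rows matched by value carried the same identifier as the sheet of called genes), so identifiers come from the latter. Of the members, 118 of 118 matched a RefSeq symbol. Values rest on sequencing reads without molecular identifiers. Errors of the blocked fit cover the spread of differences within replicate numbers, not the whole spread between these libraries. For Golga1 the SE was 0.14 with the block and 0.42 without it.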

Additional observations from a re-analysis of the deposited data

Results flagged for a closer look

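Among the named members, within the groups of 4, single libraries stood apart from the other 3 by Dixon's criterion in 9 cases, which chance gives in about 1 of 20 groups. Many groups were looked at and their genes share the same libraries, so the 9 cases do not measure an excess over that rate. Replicate number 1 accounted for 7 of them. In ShHuR 1 the normalized counts were 363.2 for Sec24a, 5660 for Copa, 2615 for Arf1, 2840 for Kdelr1, 31.91 for Sec22c and 1763 for Ssr4. In ShCTR 1, Arf1 also stood apart at 2838. Kdelr3 was low in ShCTR 4 at 785.9, and Mia2 was high in ShHuR 3 at 37.6, on few reads.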

How the results depend on the processing

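Calls depended on the replicate block. Of 11847 tested genes, 0 were called without it and 1802 with it; with it, 1787 and 1826 were called at pseudocounts 0.5 and 10, 1770 without a filter on low values, 573 without the mean-variance trend, 1648 after quantile normalization, 1845 by edgeR and 2053 by DESeq2, and 2831, 62, 523 and 0 when pairs 1 to 4 were left out in turn. Members called lower were 0 without the block and 23 with it, then 23, 23, 22, 7, 21, 24 and 26 in the same order, and 26, 3, 8 and 0 without each pair; members called higher were 0 throughout, except for 3 without pair 1. The 59-gene list gave 0, then 6 with the block, 6, 6, 6, 3, 6, 7 and 6, and 0 to 12 without 1 pair. Procollagen genes gave 0, then 2, 2, 2, 2, 1, 2, 2 and 3, and 0 to 4 without 1 pair. Without the block, DESeq2 called 248 genes, 5 members, 2 of the 59-gene list and 1 procollagen gene, edgeR called 0, and leaving out ShHuR replicate 1 gave 105 genes, 1 member (Tmed1), 1 gene of the 59-gene list and 0 procollagen genes, while leaving out any other single library gave 0. The cause of these differences was not tested. No named member called with the block changed direction under these settings. Of those not called, 6 crossed 0 on the log2 scale when 1 library was left out, none of them past the threshold: Sec13 ran from -0.31 to 0.07, Sec24a from -0.26 to 0.01 (0.02 with the block without pair 3), Sec16a from 0.00 to 0.41, Copa from -0.05 to 0.21, Kdelr1 from -0.42 to 0.00 and Golga2 from -0.33 to 0.09. Sec22c rests on as few as 9 reads in a library.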
